A study of Mus musculus with 6 samples.

Results

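The immediate early and heat shock genes make up 2 classes of rapidly induced genes, here 40 in all: 29 immediate early genes and 11 heat shock genes. They were taken from a list of names, and each was read from 1 probe set, the one with the highest mean signal over all 6 arrays among those mapped to that gene alone. Of the 40 genes 39 had such a probe set, out of 18193 genes measured. All 29 immediate early genes were measured (Cyr61 under its current symbol Ccn1), and 10 of the 11 heat shock genes. Hsp90ab1 has no probe set under its name in the annotation used and is not analysed here. All 39 had a mean log2 signal of at least 7.

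RNA came from CD11b-positive cells, the sort that the study used to obtain microglia, taken by flow cytometry from the lumbar spinal cord of male mice at 90 days, an early symptomatic age. By the paper's methods the tissue was first digested warm with trypsin and hyaluronidase, pipetted and spun, and the cells were then stained and sorted. The part of these steps in the signals of either class was not tested. The hSOD1-G93A group carried a high-copy transgene of human SOD1 with the G93A mutation, a model of amyotrophic lateral sclerosis, on a mixed B6SJL background, and the wild type group was their non-transgenic littermates. Each group had 3 arrays, numbered 1 to 3, and each array held RNA pooled from at least 6 mice, so that the spread between arrays is one between pools. Values are log2 signals, on which a difference of 1 is a doubling, and are given for arrays 1, 2 and 3 in that order.

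Immediate early genes are transcribed within minutes of a stimulus without new protein synthesis, through factors such as SRF and CREB that are already present in the cell. Their products are transcription factors (the FOS, JUN, EGR and NR4A families), phosphatases that switch off the same MAP kinases, and proteins that destroy short-lived mRNAs. The heat shock genes encode chaperones that fold or hold proteins and are induced by HSF1, which is released when unfolded protein accumulates. In microglia and macrophages the immediate early class is known for its quick response to activating signals, ahead of the cytokine genes.

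Promoter windows from 250 bases before to 50 after the annotated start were present for 34 of the 39 measured genes in RefSeq (GRCm38.p6). They are shown for genes the results turn on, with the match in capitals. The cyclic AMP response element TGACGTCA, read on both strands, is in the windows of 4 of the 26 immediate early genes that have one (Btg2, Dusp1, Maff and Ppp1r15a), of none of the 8 heat shock genes, and of 2.03% of all 27025 genes with a window. It begins 29 bases before a start of Maff (chr15:79347270-79347569, plus strand) and 12 bases before the start of Ppp1r15a (chr7:45526219-45526518, minus strand).
Maff: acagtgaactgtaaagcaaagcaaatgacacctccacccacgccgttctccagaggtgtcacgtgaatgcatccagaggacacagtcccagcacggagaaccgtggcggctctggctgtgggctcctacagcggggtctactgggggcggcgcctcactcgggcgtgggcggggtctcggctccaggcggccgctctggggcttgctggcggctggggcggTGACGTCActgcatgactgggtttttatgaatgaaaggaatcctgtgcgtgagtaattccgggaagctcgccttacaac
Ppp1r15a: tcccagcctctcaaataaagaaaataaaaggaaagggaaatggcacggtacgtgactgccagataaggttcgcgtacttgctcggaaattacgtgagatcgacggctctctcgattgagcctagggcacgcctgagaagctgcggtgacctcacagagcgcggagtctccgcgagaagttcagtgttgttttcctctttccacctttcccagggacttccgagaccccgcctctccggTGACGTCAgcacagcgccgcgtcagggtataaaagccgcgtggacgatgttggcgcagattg

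The EGR site, searched as GCGGGGGCG or GCGTGGGCG on both strands, is in the windows of 6 of 26 immediate early genes (Dusp2, Fosb, Fosl2, Maff, Nr4a1 and Zfp36), of 1 of 8 heat shock genes (Dnaja1) and of 3.93% of all genes. In Dusp2 (chr2:127335909-127336208, plus strand) it begins 98 bases before the start. The CArG box, the site of SRF, is in 3 of 26 (Dusp5, Egr2 and Zfp36) and in 1.81% of all genes.
Dusp2: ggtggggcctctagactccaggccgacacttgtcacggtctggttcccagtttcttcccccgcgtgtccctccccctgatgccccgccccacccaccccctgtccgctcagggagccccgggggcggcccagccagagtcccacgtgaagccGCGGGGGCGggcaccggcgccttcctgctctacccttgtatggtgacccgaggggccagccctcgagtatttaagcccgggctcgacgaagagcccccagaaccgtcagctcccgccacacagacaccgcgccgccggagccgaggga

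The heat shock element GAANNTTCNNGAA, on both strands, is in the windows of 3 of 8 heat shock genes (Hspd1, Hspe1 and Hsph1), of none of the 26 immediate early genes and of 0.662% of all genes. Hspe1 (chr1:55087898-55088197, plus strand) has 2 overlapping matches from 89 bases before the start. A window of Hspd1, which is transcribed the other way, shares 285 of its 300 bases with it. In Hsph1 (chr5:149636266-149636565, minus strand) the match begins 15 bases past the start. These matches describe the letters in the windows only.
Hspe1: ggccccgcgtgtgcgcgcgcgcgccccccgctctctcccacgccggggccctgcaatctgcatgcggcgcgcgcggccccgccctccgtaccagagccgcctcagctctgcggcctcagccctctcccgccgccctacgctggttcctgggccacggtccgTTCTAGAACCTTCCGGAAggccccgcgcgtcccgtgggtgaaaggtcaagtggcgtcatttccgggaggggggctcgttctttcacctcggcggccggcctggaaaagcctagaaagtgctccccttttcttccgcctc
Hsph1: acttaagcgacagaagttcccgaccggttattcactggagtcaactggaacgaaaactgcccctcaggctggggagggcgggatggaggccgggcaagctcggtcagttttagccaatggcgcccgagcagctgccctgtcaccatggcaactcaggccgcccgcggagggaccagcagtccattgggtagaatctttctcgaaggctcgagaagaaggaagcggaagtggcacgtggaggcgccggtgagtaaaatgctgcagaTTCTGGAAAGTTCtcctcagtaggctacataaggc

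The windows of Hspa1a and Hspa1b, the genes of inducible HSP70, are the same at 296 of 300 positions. The genes themselves are near-identical copies, so that the probe sets named for either may read both.

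Between genotypes, 5 immediate early genes were higher in hSOD1-G93A arrays (Dusp2, Maff, Atf3, Nr4a3 and Ppp1r15a), 1 was lower (Btg1) and 23 did not pass. Calls used limma's p adjusted by Benjamini and Hochberg's method over all genes and a threshold of 0.05. The 6 are 20.7% of the class, beside 7.38% of all genes, of which 4.59% were higher and 2.79% lower. The 7.38% includes genes of low signal. In a fit of only the 7971 genes with a mean log2 signal of at least 7, 7 immediate early genes passed, beside 15.6% of those genes. Of the 10 heat shock genes none passed, with 3 at an unadjusted p under 0.05, beside 22.3% of all genes. The median log2 difference was 0.08 over the immediate early genes and -0.24 over the heat shock genes, beside 0.02 over all genes. The median size of the difference, whatever its sign, was 0.34 for immediate early genes, 0.38 for heat shock genes and 0.14 for all genes. The ranges of the 2 genotypes did not overlap for 11 of 29 immediate early genes (37.9%) and for 4 of 10 heat shock genes (40%), beside 27.5% of all genes. The 22.3%, the 0.14 and the 27.5% also include genes of low signal, and were not computed for genes of like signal. In such bulk RNA, fewer cells of a type and less RNA per cell cannot be told apart. The count of 6 was 3 without hSOD1-G93A array 2, beside 2.98% of all genes, and 2 without hSOD1-G93A array 3, beside 2.22% of all genes, so that calls over all genes dropped too. Dusp2 and Maff passed without any 1 of the 6 arrays.

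**Figure D1:**
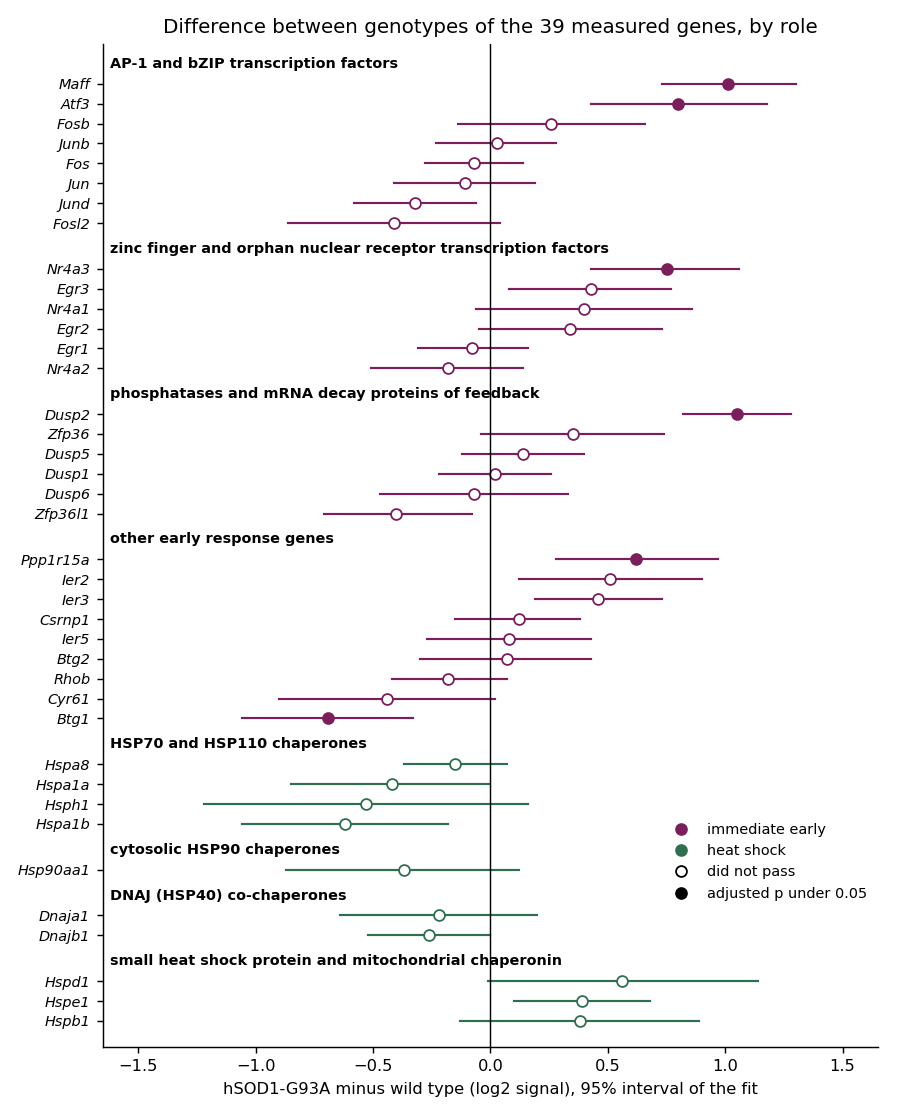
Difference in log2 signal, hSOD1-G93A minus wild type, for the 39 measured genes in order within each role, with the 95% interval of the limma fit (3 arrays per genotype). Filled points passed at an adjusted p under 0.05. They run from -0.69 for Btg1 to 1.05 for Dusp2, and the 7 members that encode cytosolic HSP70, HSP90 and DNAJ proteins all lie left of 0.

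Among the AP-1 and related basic leucine zipper genes, 2 of 8 rose and none fell. Maff, a small MAF protein that has no activation domain of its own, had 8.87, 9.09 and 9.10 in hSOD1-G93A arrays, against 7.99, 7.84 and 8.20 in wild type arrays. Every hSOD1-G93A array lay above every wild type array, and the difference of 1.01 (SE 0.13) was 2.02-fold (limma adjusted p = 0.00305). Without any 1 array the adjusted p stayed between 0.00414 and 0.0232.

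Atf3, a stress-induced factor of the ATF/CREB family, had 12.07, 12.30 and 12.66 in hSOD1-G93A arrays, against 11.37, 11.75 and 11.50 in wild type arrays. The groups did not overlap, and Atf3 rose by 0.80 (SE 0.16), with limma adjusted p = 0.0222. The call was lost without hSOD1-G93A array 2 (adjusted p = 0.0756), hSOD1-G93A array 3 (0.0749) or wild type array 3 (0.0822).

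The founding members of the class lay close to 0. Fos had 13.54, 13.55 and 13.52 in hSOD1-G93A arrays, against 13.58, 13.64 and 13.59 in wild type arrays, a difference of -0.07 with a 95% interval of -0.28 to 0.14. The 3 hSOD1-G93A arrays all lay below the wild type arrays. Jun differed by -0.11 (interval -0.41 to 0.19) and Junb by 0.03 (-0.23 to 0.28). The signals of Fos, Jund, Egr1, Dusp1, Hspa1b and Hspa8 lay above 13 on average, while the brightest probe set of an array lay between 14.51 and 14.59. Whether these probe sets were saturated was not tested.

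Of the remaining AP-1 genes Fosb differed by 0.26 (adjusted p = 0.457). Jund, the JUN protein that is least dependent on stimulation, had 13.32, 13.24 and 13.01 in hSOD1-G93A arrays, against 13.55, 13.45 and 13.54 in wild type arrays. Its groups did not overlap, but the difference of -0.32 missed the threshold (adjusted p = 0.133). Fosl2, which encodes FRA-2, stood at the low end of this role with 9.12, 9.47 and 9.39 in hSOD1-G93A arrays, against 9.25, 10 and 9.95 in wild type arrays. Wild type array 1 lay among the hSOD1-G93A arrays, and the difference was -0.41 (adjusted p = 0.272). Without wild type array 1 it was -0.65 (adjusted p = 0.0228).

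Among the zinc finger and orphan nuclear receptor genes, 1 of 6 rose. Nr4a3, which encodes NOR-1, had 7.60, 7.78 and 7.94 in hSOD1-G93A arrays, against 6.79, 7.15 and 7.15 in wild type arrays. All hSOD1-G93A arrays were the higher ones, by 0.75 (SE 0.14, limma adjusted p = 0.0158). The adjusted p was 0.0643 without hSOD1-G93A array 2 and 0.073 without hSOD1-G93A array 3. Its other probe sets differed by only -0.08 and 0.04, and the mean of all 3 by 0.24 (adjusted p = 0.231).

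The other NR4A receptors did not pass. Nr4a1, which encodes NUR77, had 10.39, 10.76 and 11.04 in hSOD1-G93A arrays, against 10.02, 10.68 and 10.29 in wild type arrays. The arrays overlapped, and the difference was 0.40 (interval -0.06 to 0.86). Nr4a2 had 7.90, 7.75 and 7.40 in hSOD1-G93A arrays, against 7.87, 7.76 and 7.97 in wild type arrays. The arrays overlapped here too, at a difference of -0.18 (interval -0.51 to 0.14).

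Egr1, the best known zinc finger factor of the class, differed by -0.08 with an interval of -0.31 to 0.16. Its paralogs Egr2 and Egr3 differed by 0.34 and 0.43 (adjusted p = 0.295 and 0.138). Egr3 had 9.58, 9.58 and 9.67 in hSOD1-G93A arrays, against 9.51, 9.15 and 8.89 in wild type arrays. The groups stood apart with wild type array 1 nearest to the hSOD1-G93A arrays, and without wild type array 1 both genes passed, at 0.53 for Egr2 (adjusted p = 0.0484) and 0.59 for Egr3 (adjusted p = 0.0246). The second probe set of Egr2 differed by -0.09 and that of Egr3 by -0.01.

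**Figure D2:**
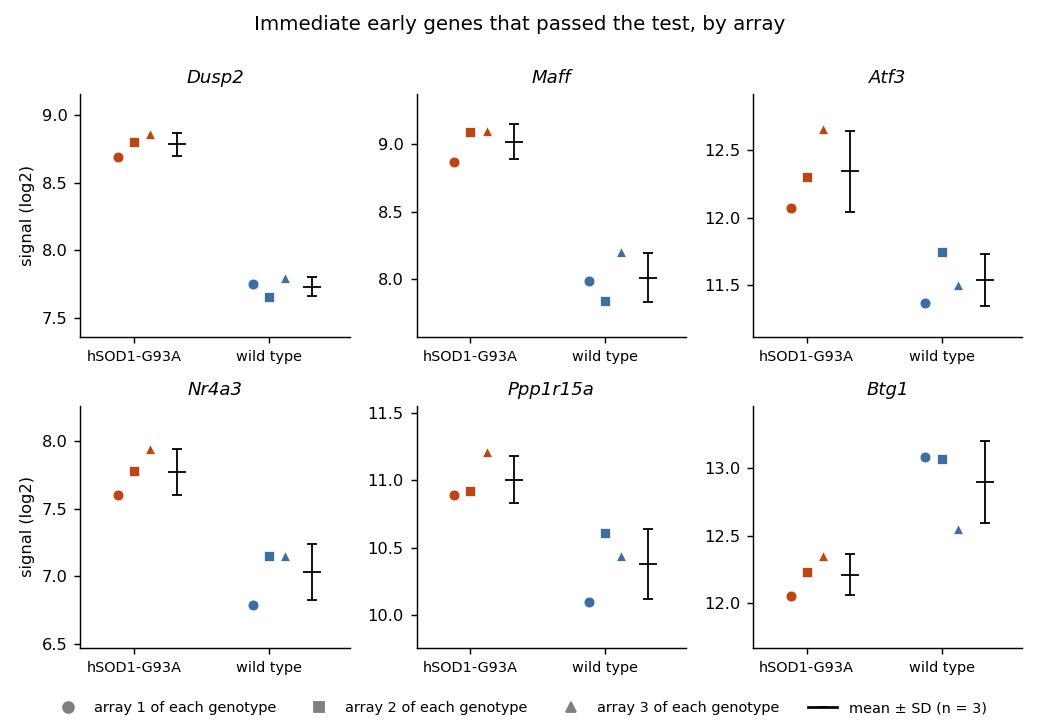
Log2 signal on each array of the 6 immediate early genes that passed, with hSOD1-G93A left and wild type right; symbols give the array number and bars the mean and SD (n = 3), and each panel spans the same width of 1.8 on the log2 axis. The 2 genotypes do not overlap in any panel, and the gap is widest for Dusp2.

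Of the genes that act in feedback, 1 of 6 rose. Dusp2, a nuclear phosphatase of MAP kinases first found in activated lymphocytes, had 8.69, 8.80 and 8.86 in hSOD1-G93A arrays, against 7.75, 7.65 and 7.79 in wild type arrays. It averaged 8.78 ± 0.08 in hSOD1-G93A arrays and 7.73 ± 0.07 in wild type arrays (SD, n = 3 each). The difference of 1.05 (SE 0.10), 2.07-fold, was the largest of the 39 genes and had the lowest limma adjusted p, 0.00126. Leaving out any 1 array gave between 0.00184 and 0.0133.

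The other dual-specificity phosphatases lay closer to 0. Dusp1, which acts on p38 and JNK, differed by 0.02 (interval -0.22 to 0.26). The ERK phosphatases Dusp5 and Dusp6 differed by 0.14 (-0.12 to 0.40) and -0.07 (-0.47 to 0.33). None of these 3 intervals reaches the 0.82 at which that of Dusp2 begins.

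Zfp36 and Zfp36l1 encode proteins that bind AU-rich mRNAs, such as that of Tnf, and bring about their decay. Zfp36 differed by 0.35 (adjusted p = 0.278) and Zfp36l1 by -0.40 (adjusted p = 0.133). Zfp36l1, at the low end of this role, had 12.16, 11.97 and 11.81 in hSOD1-G93A arrays, against 12.53, 12.46 and 12.14 in wild type arrays. The genotypes met at hSOD1-G93A array 1 and wild type array 3.

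Among the other early response genes, 1 of 9 rose and 1 fell. Ppp1r15a encodes GADD34, which leads protein phosphatase 1 to eIF2alpha and so restores translation after stress. It had 10.89, 10.92 and 11.21 in hSOD1-G93A arrays, against 10.10, 10.61 and 10.44 in wild type arrays. The groups did not overlap, and the difference was 0.62 (SE 0.15, limma adjusted p = 0.0419). This call was close to the threshold: leaving out single arrays gave adjusted p-values between 0.0485 (without wild type array 2) and 0.158 (without hSOD1-G93A array 3), and it was lost without each of the other 4 arrays too.

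Btg1, an antiproliferative protein tied to mRNA deadenylation, had 12.05, 12.23 and 12.35 in hSOD1-G93A arrays, against 13.08, 13.07 and 12.55 in wild type arrays. All hSOD1-G93A arrays were the lower ones, by 0.69 in size (log2 difference -0.69, SE 0.16, limma adjusted p = 0.0359). It passed only without wild type array 3 (adjusted p = 0.019) among the fits that left out 1 array, and without any of the other 5 the adjusted p lay between 0.0683 (without wild type array 1) and 0.114 (without wild type array 2). The other probe sets of Btg1 differed by -0.15 and 0.22, so the fall was seen on 1 of its 3 probe sets.

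Ier3, an early gene of the NF-kappaB and ERK pathways, had 12.99, 12.65 and 12.91 in hSOD1-G93A arrays, against 12.43, 12.42 and 12.32 in wild type arrays. The groups stood apart, and the difference of 0.46 lay just outside the threshold (adjusted p = 0.0503). Ier3 passed with median centring (adjusted p = 0.042), array weights (0.0454) and low-signal filters (0.044 and 0.0389), but in none of the fits without 1 array (0.0518 to 0.167). Ier2 had 12.23, 11.50 and 12.02 in hSOD1-G93A arrays, against 11.44, 11.41 and 11.38 in wild type arrays. Here hSOD1-G93A array 2 was close to the wild type arrays; the difference was 0.51 (adjusted p = 0.117), and 0.72 without that array (adjusted p = 0.0311).

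The last 5 genes did not pass. Ier5 differed by 0.08, Btg2 (a paralog of Btg1) by 0.07 and Csrnp1 by 0.12. Rhob, an early-induced small GTPase, differed by -0.18 (interval -0.42 to 0.07). Cyr61, a secreted matrix protein and a target of SRF and YAP, had 7.31, 7.03 and 6.97 in hSOD1-G93A arrays, against 8.03, 7.42 and 7.20 in wild type arrays. The arrays overlapped, with array 1 the highest of each genotype, and the difference was -0.44 (interval -0.90 to 0.02).

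**Figure D3:**
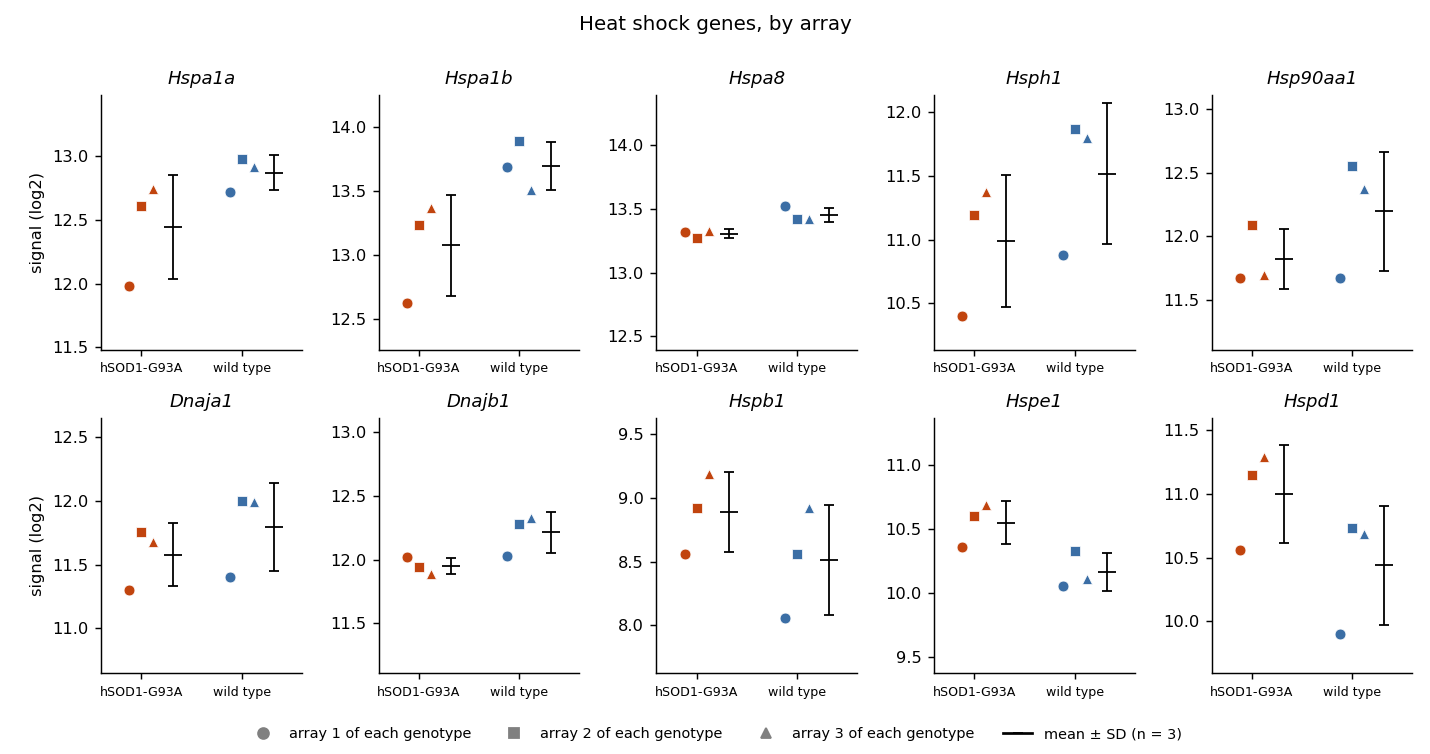
Log2 signal on each array of the 10 measured heat shock genes, hSOD1-G93A left and wild type right, with the array number as the symbol and the mean and SD as bars (n = 3); each panel spans the same width of 2 on the log2 axis. Array 1 (circle) is the lowest of its genotype on both sides in 7 of the 10 panels.

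The heat shock genes fell into 2 sets by sign, and no gene of either passed. All 7 measured members that encode cytosolic HSP70, HSP90 and DNAJ proteins had lower means in hSOD1-G93A arrays. Their log2 differences were -0.62 to -0.15, with a median of -0.37. Hspb1, Hspe1 and Hspd1 had higher means, by 0.38, 0.39 and 0.56. The sign turned for Hspa8 when it was read from its probe set without a suffix (0.013) and for Hspb1 with an RNA length covariate (-0.07). Related genes outside the members went both ways, such as Hspa4 (0.51) and Hspa4l (-0.47). By symbol, members included, 26 of 44 measured Dnaj genes had positive and 18 negative differences. Of 26 measured Hsp genes 12 were positive and 14 negative. These 2 families were picked after the values were seen.

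Hspa1b, inducible HSP70, had 12.62, 13.23 and 13.37 in hSOD1-G93A arrays, against 13.69, 13.89 and 13.51 in wild type arrays. The groups did not overlap, and the difference of -0.62 (SE 0.19) had the lowest adjusted p of this class, 0.0917. Its other probe sets differed by -0.66 and -0.58. The near-identical Hspa1a had 11.98, 12.61 and 12.74 in hSOD1-G93A arrays, against 12.72, 12.98 and 12.91 in wild type arrays. Here hSOD1-G93A array 3 reached wild type array 1, and the difference was -0.42 (interval -0.85 to 0.00, adjusted p = 0.227).

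Hspa8, the constitutive HSC70, had 13.32, 13.27 and 13.33 in hSOD1-G93A arrays, against 13.52, 13.42 and 13.42 in wild type arrays. The difference of -0.15 (interval -0.37 to 0.07) was the smallest of the HSP70 genes, and the other probe sets ran from -0.21 to 0.16. Hsph1, the HSP110 that exchanges the nucleotide of HSP70, had 10.40, 11.19 and 11.37 in hSOD1-G93A arrays, against 10.88, 11.87 and 11.80 in wild type arrays. Array 1 lay far below arrays 2 and 3 in both genotypes, and with all arrays the difference was -0.53 (SE 0.31, adjusted p = 0.36).

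Hsp90aa1, the inducible cytosolic HSP90, had 11.67, 12.09 and 11.70 in hSOD1-G93A arrays, against 11.67, 12.55 and 12.37 in wild type arrays. The array 1 values were equal in both genotypes, and the difference was -0.37 (adjusted p = 0.369). Without wild type array 1 it was -0.64 and passed (adjusted p = 0.0396). Dnaja1 and Dnajb1, the J-domain partners of HSP70, differed by -0.22 and -0.26 (adjusted p = 0.559 and 0.217).

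Dnajb1 had 12.02, 11.94 and 11.89 in hSOD1-G93A arrays, against 12.03, 12.28 and 12.33 in wild type arrays. The groups were separated by 0.01 between array 1 of each. Dnaja1 had 11.30, 11.76 and 11.68 in hSOD1-G93A arrays, against 11.40, 12 and 11.99 in wild type arrays, which overlapped. Another probe set of Dnaja1 differed by -0.81 (limma adjusted p = 0.0537 across every probe set) and the third by -0.05.

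Hspd1 and Hspe1 form the mitochondrial chaperonin of HSP60 and HSP10 and are transcribed in opposite directions from 1 promoter. Hspd1 had 10.56, 11.15 and 11.29 in hSOD1-G93A arrays, against 9.90, 10.73 and 10.69 in wild type arrays. The groups overlapped through the low array 1 of hSOD1-G93A, and the difference of 0.56 (SE 0.25) did not pass (adjusted p = 0.23).

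Hspe1 had 10.36, 10.60 and 10.69 in hSOD1-G93A arrays, against 10.05, 10.33 and 10.11 in wild type arrays. The groups did not overlap, and the difference was 0.39 (SE 0.13, adjusted p = 0.107). Its second probe set gave 0.38. Hspb1, a small heat shock protein that holds unfolded protein without ATP, had 8.56, 8.92 and 9.19 in hSOD1-G93A arrays, against 8.06, 8.56 and 8.92 in wild type arrays. The groups overlapped at a difference of 0.38 (interval -0.13 to 0.89).

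Array 1 stood apart in both genotypes, in this class and also over all genes. It was the lowest of its genotype on both sides for 7 of the 10 heat shock genes (Hspa1a, Hsph1, Hsp90aa1, Dnaja1, Hspb1, Hspe1 and Hspd1), which is 70.0%. The same held for 7 of 29 immediate early genes (24.1%) and 15.2% of all genes (14.7% for array 2 and 8.69% for array 3). Array 1 was the highest on both sides for 24.0% of all genes, beside 8.07% for array 2 and 8.53% for array 3. In the fit with array weights, the arrays numbered 1 had the lowest weights (0.53 for hSOD1-G93A and 0.59 for wild type). Whether the low heat shock signals on array 1 were particular to this class was not tested. The median deviation of the 10 genes, each from its own mean over all arrays, was -0.25, 0.01 and 0.04 in hSOD1-G93A arrays. It was -0.30, 0.25 and 0.23 in wild type arrays. The median range within a genotype was 0.54 in hSOD1-G93A arrays and 0.49 in wild type arrays for these genes, and 0.26 in each for all genes.

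Without both arrays numbered 1, 3 of the 10 heat shock genes passed in limma, beside 11.5% of all genes. Hsph1 fell by 0.55 (log2 difference -0.55, SE 0.13, adjusted p = 0.0185) and Hsp90aa1 by 0.56 (log2 difference -0.56, adjusted p = 0.0384), while Hspd1 rose by 0.51 (adjusted p = 0.023). Of the immediate early genes 8 then passed: Egr2, Egr3 and Fosl2 were added, and Btg1 was lost (adjusted p = 0.0757).

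Other values moved with the array number. The summed linear signal of 8 measured neutrophil markers was 52440 on hSOD1-G93A array 1 and 72528 and 74902 on the other two, against 65566 on wild type array 1 and 106249 and 105588 on the other two. The 9 measured monocyte markers summed to 8460 on hSOD1-G93A array 1 and 13144 and 13693 on the other two, against 14554 on wild type array 1 and 24773 and 23195 on the other two. The 3' minus 5' difference of the Gapdh control probe sets, which grows as RNA or its copies get shorter, was 4.63, 4.28 and 3.47 in hSOD1-G93A arrays, against 5.01, 4.79 and 4.87 in wild type arrays. It was highest on array 1 of each genotype and lower on every hSOD1-G93A array (difference -0.77, exact two-sided permutation p = 0.1, the smallest that 3 against 3 arrays allow), and that of Actb differed by -0.75 (exact permutation p = 0.2). With the Gapdh difference as a covariate, Dusp2 was the only member to pass (adjusted p = 0.0436), and 99 of all genes did. The part of these values in the results was not tested.

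The sorted cells carried the markers of microglia. The 9 measured summed to 50480 to 55327 in hSOD1-G93A arrays, against 46830 to 51262 in wild type arrays. The 8 neutrophil markers summed to more on every array (52440 to 74902, against 65566 to 106249 in wild type arrays). Sums over different probe sets do not give shares of cells. Of the 9 microglia markers, Trem2 and Fcrls were higher in hSOD1-G93A arrays, by 1.28 and 1.07, and 7 did not pass. Among these 7 Csf1r, Cx3cr1 and Tmem119 differed by -0.08 to -0.03 and Itgam, which encodes CD11b, by -0.02. Siglech differed by 0.52 (adjusted p = 0.0637), Aif1 by 0.34 (adjusted p = 0.108) and P2ry12 by -0.29 (adjusted p = 0.294). Markers of other cells differed between genotypes. Astrocyte markers were lower for 5 of 10 and summed to 1318 to 2172 in hSOD1-G93A arrays, against 2827 to 5258 in wild type arrays. Oligodendrocyte markers were lower for 2 of 9 (9693 to 10784 in hSOD1-G93A arrays, against 15901 to 23377 in wild type arrays), neuronal markers for 4 of 10 (440 to 533, against 866 to 1001 in wild type arrays) and monocyte markers for 5 of 9 (8460 to 13693, against 14554 to 24773 in wild type arrays). Of the 10 neuronal markers 4 (Nefm, Snap25, Tubb3 and Map2) had a low mean log2 signal, under 5. No neutrophil marker of 8 passed, and 1 of 9 vascular markers was higher. Their part in the differences of the immediate early and heat shock genes was not tested.

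**Figure D4:**
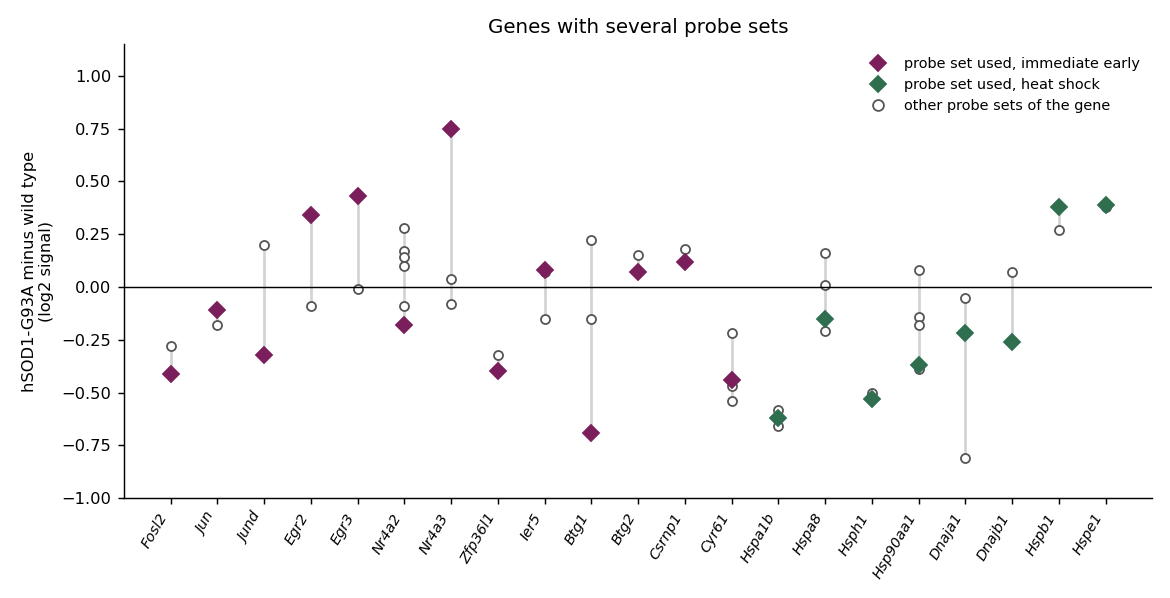
Log2 difference, hSOD1-G93A minus wild type, of every probe set of the 21 genes that have more than 1; diamonds mark the probe set used and open circles the others. Nr4a3 and Btg1 show the widest gaps between the probe set used and the rest, and Hspa1b, Hsph1 and Hspe1 the closest agreement.

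Probe sets of 1 gene often disagreed. Of the 29 immediate early genes 13 had more than 1 probe set, and in 6 of these every other probe set had the sign of the one used. The 7 with at least 1 of opposite sign were Jund, Egr2, Egr3, Nr4a2, Nr4a3, Ier5 and Btg1. Of the 10 heat shock genes 8 had more than 1, with the same sign throughout in 5 and a mixed sign in Hspa8, Hsp90aa1 and Dnajb1. None of these other probe sets, 22 of immediate early and 15 of heat shock genes, passed in a fit of every probe set on the array. Dusp2, Maff, Atf3 and Ppp1r15a have 1 probe set each, so their differences have no second reading on these arrays.

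Genes around the 2 classes were read from 3 further lists. Of 32 other early response genes 7 rose (Ccl4, Gem, Tnf, Ccl3, Rgs1, Myc and Phlda1) and 1 fell (Cebpd). That is 25.0%, beside 7.38% of all genes, and the median difference was 0.23. In the fit of only the 7971 genes with a mean log2 signal of at least 7, 15.6% of all those genes passed. Ccl4, a chemokine, had 11.46, 11.32 and 11.71 in hSOD1-G93A arrays, against 10.46, 9.98 and 10.01 in wild type arrays, a rise of 1.35 (limma adjusted p = 0.00253). Tnf, whose mRNA is a target of Zfp36, had 9.20, 9.42 and 9.65 in hSOD1-G93A arrays, against 8.22, 8.26 and 8 in wild type arrays, a rise of 1.26 (adjusted p = 0.00204). Gem, a small GTPase, had 8.62, 9.14 and 9.59 in hSOD1-G93A arrays, against 8.02, 8.01 and 7.47 in wild type arrays, a rise of 1.29 (adjusted p = 0.0159). All 3 stood clear of the wild type arrays, and Gem alone of them lost its call in a fit without 1 array (highest adjusted p 0.0673, against 0.0166 for Ccl4 and 0.0169 for Tnf).

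Of 19 kinases and transcription factors upstream of the immediate early genes 14 were measured, among them Srf, Creb1 and Mapk14. None passed, 5 had an unadjusted p under 0.05 (22.3% of all genes did), and the differences ran from -0.46 to 0.57. Srf differed by -0.04 and Creb1 by -0.21.

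Of 36 measured other chaperones and heat shock regulators 5 rose and none fell, 13.9% beside 7.38% of all genes. In the fit of only the 7971 genes with a mean log2 signal of at least 7, 15.6% of all those genes passed. The 5 that rose were Tcp1, Cct5, Bag1, Cdc37 and Hsbp1. Tcp1 and Cct5 are subunits of the cytosolic chaperonin for actin and tubulin, and Bag1 is a nucleotide exchange factor of HSP70. Cdc37 brings kinases to HSP90, and Hsbp1 is a binding protein of HSF1. Tcp1 had 9.73, 9.99 and 10.19 in hSOD1-G93A arrays, against 9.07, 9.41 and 9.39 in wild type arrays, a rise of 0.68 (limma adjusted p = 0.029). Bag1 had 9.61, 9.85 and 9.61 in hSOD1-G93A arrays, against 9.26, 8.99 and 8.96 in wild type arrays, a rise of 0.62 (adjusted p = 0.0211). Cdc37 had 8.99, 8.99 and 9.34 in hSOD1-G93A arrays, against 8.30, 8.52 and 8.67 in wild type arrays, a rise of 0.61 (adjusted p = 0.0347). The groups did not overlap for any of these 3. Every one of these 5 lost its call in at least 1 fit without 1 array, with highest adjusted p-values of 0.073 for Hsbp1 to 0.158 for Cct5.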

How the data were processed

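RNA was measured on whole-genome Affymetrix mouse arrays, 3 of each genotype. The authors deposited 1 log2 signal for each probe set and array. The submitters' processing notes name RMA in Partek, with no version, whereas the paper's methods name MAS 5.0, whose detection calls are not used here. RMA sets all arrays to 1 distribution, so array medians lay between 5.93 and 5.97 and a change common to most genes could not be seen. The number of arrays limits the precision.

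One probe set per gene (the highest mean over the 6 arrays among those with that symbol alone) was fitted with limma 3.58.1 (R 4.3.3) by lmFit and eBayes without trend or robust settings; genotype was the only term, and p was adjusted by Benjamini-Hochberg over 18193 genes. Of 45037 probe sets 34945 have 1 gene symbol, 932 several and 9160 none. Intervals are 95% intervals of this fit. All 40 members are reported, with values per array for those that passed or lay at the ends of a role, and for the passing genes with the 3 largest differences of each list of related genes. The members and lists were chosen with earlier results of these data known. Alternatives were the methods' unequal-variance test, eBayes with trend and robust settings, and adjustment or moderation over all probe sets (the latter added after seeing the data). Further alternatives were other probe set choices, low-signal filters, median centring, array weights, a replicate block, the Gapdh covariate and fits without arrays. The fit was tested on simulated data. Promoter windows are from RefSeq. Python 3.11.15 with pandas 2.3.3 and matplotlib 3.10.9 was used.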

Additional observations from a re-analysis of the deposited data

How the results depend on the processing

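Of the immediate early genes 6 passed. Under the next alternatives 5 to 8 did, beside 5.61% to 15.6% of the genes tested. They were eBayes with trend and robust settings, adjustment or moderation over all probe sets, both other probe set choices and both low-signal filters. Median centring, array weights and the fit without both arrays numbered 1 were the rest. The methods' test gave 0 after Benjamini-Hochberg adjustment, as it did over all 18193 genes, and 2 at the methods' thresholds of fold and unadjusted p, beside 424 of all genes. The Gapdh covariate gave 1, beside 99 of all genes. Fits without 1 array gave 2 to 7, beside 2.22% to 7.66% of all genes. Of the heat shock genes 1 passed with array weights and 3 without both arrays numbered 1, beside 11.5% of all genes in each. Without 1 array 0 to 1 passed, beside 2.22% to 7.66% of all genes. Of the 82 related genes 13 passed. The count was 0 with the methods' test and 6 at its thresholds, beside 0 and 424 of all genes. It was 23 with array weights and 25 without both arrays numbered 1, beside 11.5% of all genes in each. With the Gapdh covariate 1 passed, beside 99 of all genes. At a mean log2 signal of at least 7 the count was 18, beside 15.6% of the genes tested. Fits without 1 array gave 5 to 17, beside 2.22% to 7.66% of all genes. The median of the immediate early genes was -0.05 with the Gapdh covariate.

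The sign of 13 of the 39 genes changed in at least 1 setting, and of those Btg1 alone had passed. With the Gapdh covariate the differences were -0.13 for Fosb, -0.10 for Junb, -0.069 for Nr4a1, 0.15 for Nr4a2, 0.089 for Dusp6, -0.037 for Zfp36, -0.16 for Ier5, -0.052 for Btg2, -0.11 for Csrnp1 and -0.07 for Hspb1. With array weights they were -0.017 for Junb, -0.021 for Dusp1 and -0.052 for Btg2. Without both arrays numbered 1 they were -0.019 for Junb, -0.076 for Dusp1, 0.023 for Dusp6 and -0.033 for Btg2. The mean over probe sets gave 0.07 for Nr4a2 and -0.0012 for Ier5, and probe sets without a suffix gave 0.17 for Nr4a2, 0.22 for Btg1 and 0.013 for Hspa8. Without 1 array the differences ran from -0.044 to 0.11 for Junb, -0.03 to 0.066 for Dusp1, -0.21 to 0.12 for Dusp6, -0.052 to 0.19 for Ier5 and -0.039 to 0.25 for Btg2. The cause was not tested.

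A replicate block gave 10 immediate early genes, 5 heat shock genes (Hspa1b, Hsph1, Hspb1, Hspe1 and Hspd1) and 27 related genes, beside 13.8% of all genes. Arrays of the same number had residual correlations of 0.44, 0.24 and 0.04, and hSOD1-G93A array 3 correlated better with wild type array 2 (0.42), so the numbers were not taken as a pairing.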

Other observations

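Symbols that share a family name with the members, picked after the values were seen, add a few genes. Of 24 measured Dusp genes 4 rose and none fell, 16.7% beside 7.38% of all genes: Dusp2 and, at smaller differences, Dusp16 (0.44, limma adjusted p = 0.0343), Dusp8 (0.43, adjusted p = 0.037) and Dusp19 (0.40, adjusted p = 0.0426). Each of the last 3 had an adjusted p above 0.12 in a fit without 1 array.

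Of the 4 measured Maf genes, Maf moved opposite to Maff. Maf, the large family member that keeps an activation domain, had 11.08, 11.59 and 11.36 in hSOD1-G93A arrays, against 12.25, 12.47 and 12.02 in wild type arrays. It fell by 0.90 (log2 difference -0.90, SE 0.16, limma adjusted p = 0.0135), while the small members Mafg and Mafk differed by -0.09 and 0.08. The highest adjusted p of Maf without 1 array was 0.0615, past the threshold.

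Of 44 measured Dnaj genes 2 rose (Dnajc12 by 0.56 and Dnajc11 by 0.47) and 1 fell (Dnajc13, log2 difference -0.51), 6.82% beside 7.38% of all genes. Their highest adjusted p-values without 1 array were 0.0961, 0.138 and 0.0752 in that order. Of 26 measured Hsp genes, members included, 1 rose (Hspb6 by 0.41, adjusted p = 0.0479) and none fell, which is 3.85%. Of 9 Cct genes Cct5 passed and of 9 Atf genes Atf3, 11.1% each.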
